A study of Mus musculus with 6 samples.

Results

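miR-146a and miR-146b were measured in exosomes, the small vesicles that cells release, from RAW 264.7 cells, an established mouse macrophage line. The 4 mature miRNAs of the family, listed as mmu-miR-146a-5p, mmu-miR-146a-3p, mmu-miR-146b-5p and mmu-miR-146b-3p, were taken by name from the 1881 mouse miRNAs on the array, and they are read by 10 of its 4415 probes in 120 spots. Exosomes came from the supernatant of 3 control samples, labelled normal, and of 3 samples of cells kept in complete medium with 2 µg/mL lipopolysaccharide (LPS), the endotoxin of Gram-negative bacteria, which macrophages sense through TLR4. The LPS supernatant was taken after 72 h, no time is given for the controls, and both groups went through the same column isolation. Each sample was read on 1 one-colour Agilent miRNA array. Nothing in the labels says that the replicates were separate cultures, so the p-values below reflect sample-to-sample spread that could be technical. All samples share 1 cell line, and the labels give the same RNA amount, 0.5 µg, for each. The arrays thus compare equal listed amounts of RNA. Vesicle number was not part of the data, so neither vesicle yield nor miRNA per vesicle can be read from the signals.

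miR-146a and miR-146b are transcribed from separate genes and are known as brakes on Toll-like receptor signalling. NF-κB induces miR-146a after LPS, and the mature miRNA represses Traf6 and Irak1, which carry the signal from the receptor to NF-κB. A hairpin precursor yields a 5p and a 3p arm, and for this family the 5p arm is the one known to guide silencing while the 3p arm is the passenger strand.

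The mature sequences show why the 5p arms form 1 family and the 3p arms do not; they are given 5′ to 3′ from RefSeq (GRCm38.p6), with the seed, bases 2 to 8, in capitals.
miR-146a-5p: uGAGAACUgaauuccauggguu
miR-146b-5p: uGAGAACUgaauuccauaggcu
miR-146a-3p: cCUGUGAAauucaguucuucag
miR-146b-3p: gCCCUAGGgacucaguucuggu
The 5p arms share the seed GAGAACU, which no other mature mouse miRNA in the RefSeq table has. They are identical at 20 of 22 positions and differ, with miR-146a-5p named first and positions counted from the 5′ end, by G18A and U21C. Neither 3p arm shares its seed with another miRNA in the table. In the precursors below the mature arms are in capitals, and they show that each 3p arm lies opposite its 5p arm.
miR-146a hairpin: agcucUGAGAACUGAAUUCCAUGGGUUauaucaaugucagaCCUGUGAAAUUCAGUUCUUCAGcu
miR-146b hairpin: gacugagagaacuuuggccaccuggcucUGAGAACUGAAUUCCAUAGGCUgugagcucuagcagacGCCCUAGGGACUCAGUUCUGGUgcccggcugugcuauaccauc

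The 5p arms were each read by a 19-base and an 18-base probe, which pair with bases 4 to 22 and 5 to 22 of the miRNA. The probes are shown because those of the 2 arms differ at only 2 bases, in capitals here.
miR-146a-5p, 19-base probe: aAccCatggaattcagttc
miR-146a-5p, 18-base probe: aAccCatggaattcagtt
miR-146b-5p, 19-base probe: aGccTatggaattcagttc
miR-146b-5p, 18-base probe: aGccTatggaattcagtt
By the files' own mm9 positions, the 19-base probe of miR-146a-5p maps to chromosome 11, from 43187908 to 43187925. The 19-base probe of miR-146b-5p maps to chromosome 19, from 46417284 to 46417301. In the RefSeq gene table no other gene overlaps Mir146, the gene of miR-146a, and its nearest protein-coding neighbours are Atp10b and Pttg1. Mir146b overlaps the non-coding RNA gene Gm36493 and has Cuedc2 and Fbxl15 on one side and Mfsd13a on the other. The 3p arms were read by 2 probes for miR-146a-3p and 4 for miR-146b-3p.

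Both 5p arms were detected on all 6 arrays and were brighter on every LPS array than on every control array. On the scanner's background-subtracted scale, averaged over the spots of the 19-base probe, miR-146a-5p read 1678, 1996 and 1872 in control 1 to 3 and 18233, 24121 and 23711 in LPS 1 to 3. The groups did not overlap, and LPS 1 was the lowest of its group. miR-146b-5p read 52.5, 52.2 and 58.8 in control and 1928, 2270 and 2146 in LPS, again without overlap. The group means differed 11.9-fold for miR-146a-5p and 38.8-fold for miR-146b-5p before any scaling. No spot of either arm was saturated.

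The shorter probes gave the same order of groups. The 18-base probe of miR-146a-5p read 303, 346 and 332 in control and 3487, 5405 and 5113 in LPS. That of miR-146b-5p read 9.80, 13.1 and 12.6 in control, where none of its spots was well above background, and 233, 355 and 317 in LPS, where all were. The control level of miR-146b-5p therefore rests on its 19-base probe, which was well above background in 13 of 14, 12 of 12 and 13 of 13 spots.

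**Figure D1:**
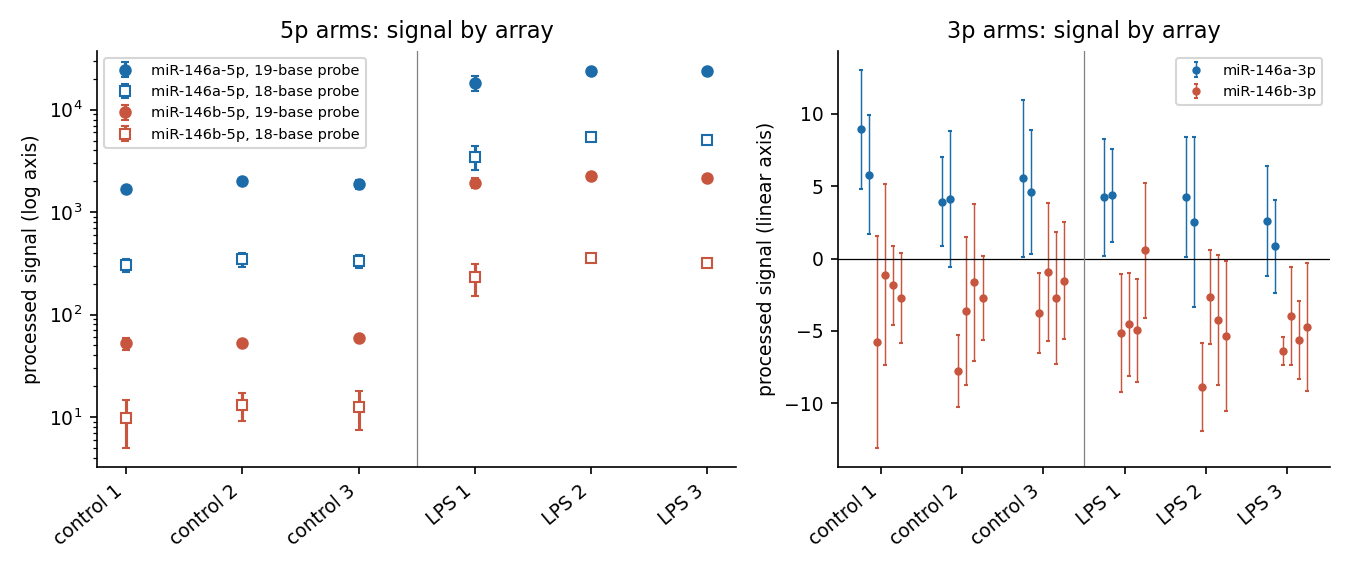
Background-subtracted signal of each member by array, with points for the mean over a probe's spots and bars for the SD over spots; the 5p arms are on a log axis and the 3p arms on a linear one. Both 5p arms are higher on each LPS array than on each control array, and the 3p arms lie between -8.90 and 8.94 on all arrays.

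The arrays as a whole were brighter in LPS, so changes were read after scaling. Over the 198 miRNAs that every array detected, the 75th percentile averaged 477 ± 41.0 over the controls and 2229 ± 180 over the LPS arrays (SD, n = 3), which is 4.67-fold, while 4 spiked-in RNAs had a geometric mean of 2707 ± 83.9 and 2377 ± 181. Each measure gave p = 0.1 by exact permutation (two-sided), and 3 against 3 arrays can go no lower. The effective feature size fraction listed for each array was 0.6 in control and 0.812 to 0.829 in LPS. Its part in the changes was not tested. The arrays detected 213 to 228 miRNAs in control and 412 to 446 in LPS. Of 4 myeloid marker miRNAs, 3 were detected on every control array and 4 on every LPS array, with summed signals of 290 to 326 and 2445 to 2969. Erythroid and serum (4 markers), muscle and mesenchymal (5) and neural (2) markers were detected on 0 arrays, with summed signals of 21.1 to 25.8, 5.26 to 12.4 and -0.354 to 3.82 in control and 48.8 to 52.2, -12.1 to 1.99 and -3.85 to 2.65 in LPS. Of 5 epithelial markers miR-200c-3p and of 2 lymphocyte markers miR-181a-5p were detected, on the LPS arrays only. The summed signals were 8.86 to 14.6 in control and 63.7 to 76.7 in LPS for the epithelial markers, and -2.85 to -1.36 in control and 38.0 to 59.1 in LPS for the lymphocyte markers. Whether these marker signals reflect other cell sources was not tested, nor was their part in the changes of miR-146a and miR-146b.

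Against the 75th percentile of the miRNAs shared by all arrays, miR-146a-5p rose 2.54-fold and miR-146b-5p 8.30-fold in LPS exosomes. The median of those miRNAs itself rose by 0.77 on the log2 scale. With arrays set to a common 75th percentile of those miRNAs, miR-146a-5p stood at log2 levels of 11.97, 11.98 and 11.94 in control and 13.18, 13.37 and 13.36 in LPS. The means were 11.96 ± 0.018 and 13.30 ± 0.11 (SD, n = 3), and the rise was 1.34 on the log2 scale (SE 0.06, limma, Benjamini-Hochberg adjusted p = 1.26e-06 over 412 miRNAs). miR-146b-5p stood at 6.97, 6.72 and 6.95 in control and 9.94, 9.96 and 9.89 in LPS. Its means were 6.88 ± 0.14 and 9.93 ± 0.035 (SD, n = 3), and the rise was 3.05 (SE 0.08, adjusted p = 8.55e-08 in limma). Both differences were many times the spread within either group. Such calls were common on these arrays, since 65.5% of the 412 tested miRNAs passed as higher in LPS and 26.7% as lower, and 58.1% were higher among the 198 detected on all arrays.

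The position of each arm among the shared miRNAs separates them more than the calls do. The median change of the 198 was 0.77; miR-146a-5p stood 0.58 above it, with 56 of the 198 having larger changes. miR-146b-5p stood 2.29 above it, with 4 having larger changes. On the same slide, LPS 1 shared its row with the 3 controls. Within that row the changes were 1.25 for miR-146a-5p and 3.10 for miR-146b-5p, and the controls alone supplied the spread. LPS 2 and LPS 3 lay in another row without a control, so for them row and treatment cannot be told apart. A fit with the row as a block therefore made the same comparison, of LPS 1 with the controls, and gave 1.22 and 3.06.

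**Figure D2:**
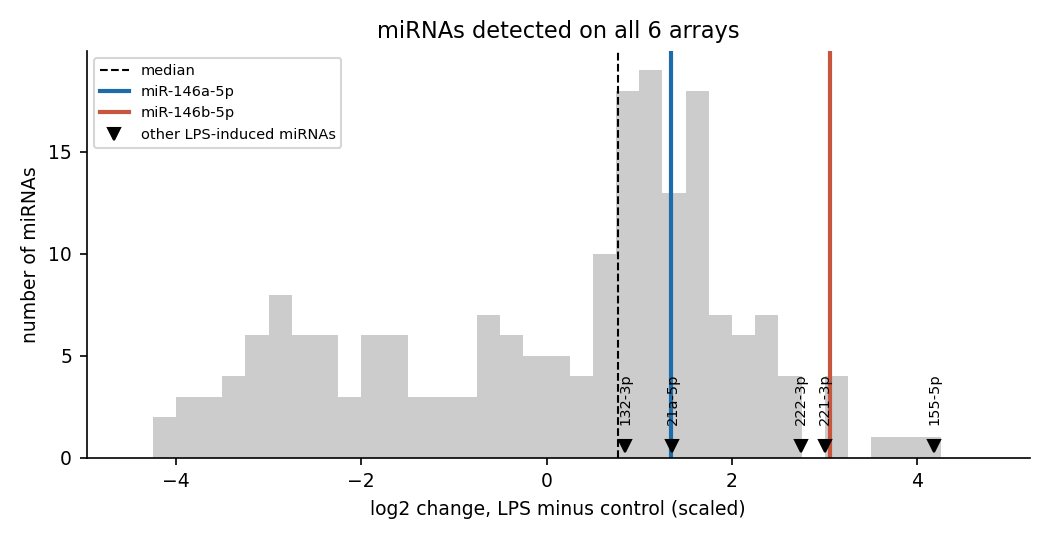
Number of miRNAs by log2 change (LPS minus control, scaled arrays) among the 198 detected on all 6 arrays, with lines at the median (0.77), miR-146a-5p (1.34) and miR-146b-5p (3.05), and triangles at 5 other miRNAs known to rise in LPS-treated macrophages. miR-146a-5p sits within the main peak of changes near miR-21a-5p, and miR-146b-5p sits in the upper tail near miR-221-3p.

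The change was unequal between the 5p arms. A single scaling factor per array does not affect this comparison, since it cancels in the ratio of that array's own signals. Other processing steps can change the ratio, as given below. With the 19-base probes the log2 ratio of miR-146b-5p over miR-146a-5p was -4.999, -5.26 and -4.99 in control and -3.24, -3.41 and -3.47 in LPS. It rose by 1.71, or 3.27-fold, and the groups did not overlap (exact permutation p = 0.1, two-sided, the smallest that 3 against 3 allow). As a share, the signal of the miR-146b-5p probe was 2.96% ± 0.301 of that of the miR-146a-5p probe in control and 9.68% ± 0.796 in LPS (SD, n = 3). Probes differ in how brightly they report a molecule, so these shares are not abundances. How much of the control signal at the miR-146b-5p probe came from miR-146a-5p, which mismatches it at the 2 bases shown in capitals above, was not tested.

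The 18-base probes did not settle the direction of the ratio. Their measured log2 ratio was -4.95, -4.72 and -4.72 in control and -3.90, -3.93 and -4.01 in LPS. Because the 18-base probe of miR-146b-5p was not well above background on any control array, its own change is a bound: at least 1.97-fold higher in LPS, against the lowest signal of any probe well above background on each control array, with measured means of 4.67 and 7.10. The 18-base probe of miR-146a-5p rose 3.01-fold, so with these probes the order of the changes of the 2 arms is not readable.

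**Figure D3:**
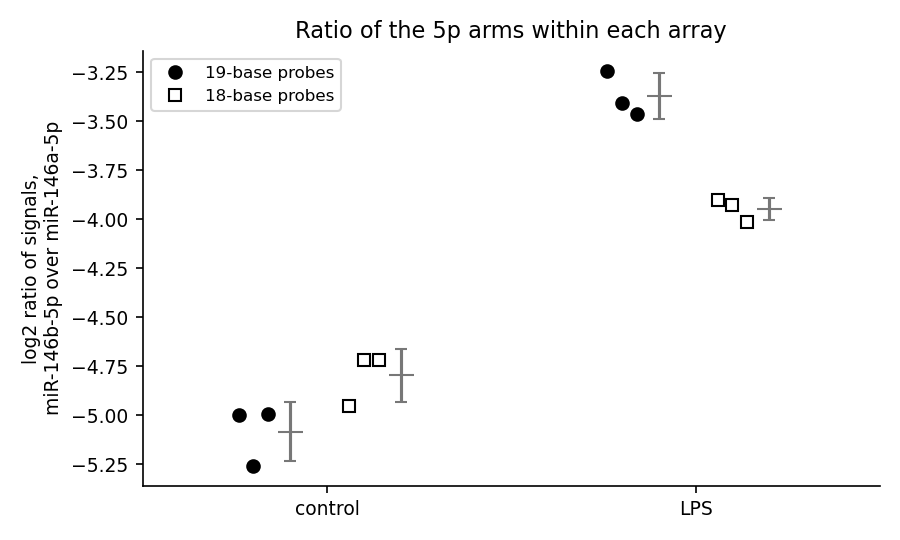
Log2 ratio of the miR-146b-5p signal over the miR-146a-5p signal on each array, for the 19-base probes (filled) and the 18-base probes (open), with group means and SD (n = 3) in grey. For the 19-base probes the LPS arrays lie above the control arrays by 1.71; the 18-base control points rest on a miR-146b-5p signal not well above background, so no direction is read from the open points.

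The 3p arms were detected on 0 of 6 arrays. Probe means of miR-146a-3p ran from 3.93 to 8.94 in control and from 0.847 to 4.37 in LPS, and those of miR-146b-3p from -7.78 to -0.934 and from -8.90 to 0.566, with 0 spots well above background. No change is read from such values. In the authors' log2 value table miR-146a-3p was at 2.86 ± 0.033 in control and 2.77 ± 0.029 in LPS, and miR-146b-3p at 2.66 ± 0.0020 and 2.62 ± 0.0087 (SD, n = 3), close to the median of all entries, 2.73 to 2.74. An undetected opposite arm was the usual case: of 134 names with both arms on the array and 1 arm detected on all 6 arrays, the other arm was detected on none in 100 (74.6%).

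The size of the changes depended on the scaling. A single factor per array shifts both arms equally and could not change their order. Quantile normalization could have changed the order and did not. miR-146a-5p ran from 1.03 (arrays scaled to the median of shared miRNAs) to 3.76 (scaled to spiked-in RNAs), and miR-146b-5p from 2.74 to 5.47 under the same settings. The median of the 198 shared miRNAs moved with them, from 0.45 to 3.18, and a single factor per array leaves the distances of 0.58 and 2.29 above it as they are. Other settings changed them. Quantile normalization put miR-146a-5p 0.83 above the median, with 50 of the 198 having larger changes, and miR-146b-5p 2.43 above it, with 5 larger. In the authors' value table the arms rose by 1.79 and 3.30, which was 1.26 and 2.77 above the median, with 34 and 4 larger. Normexp background correction gave 1.44 for miR-146a-5p and 2.06 for miR-146b-5p, which was 1.33 and 1.95 above the median, with 26 and 7 larger. Their log2 ratio then rose by 0.62 in place of 1.71. Normexp adds an offset of 50, close to the 19-base signal of miR-146b-5p in control. The offset's part in the smaller rise was not tested.

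**Figure D4:**
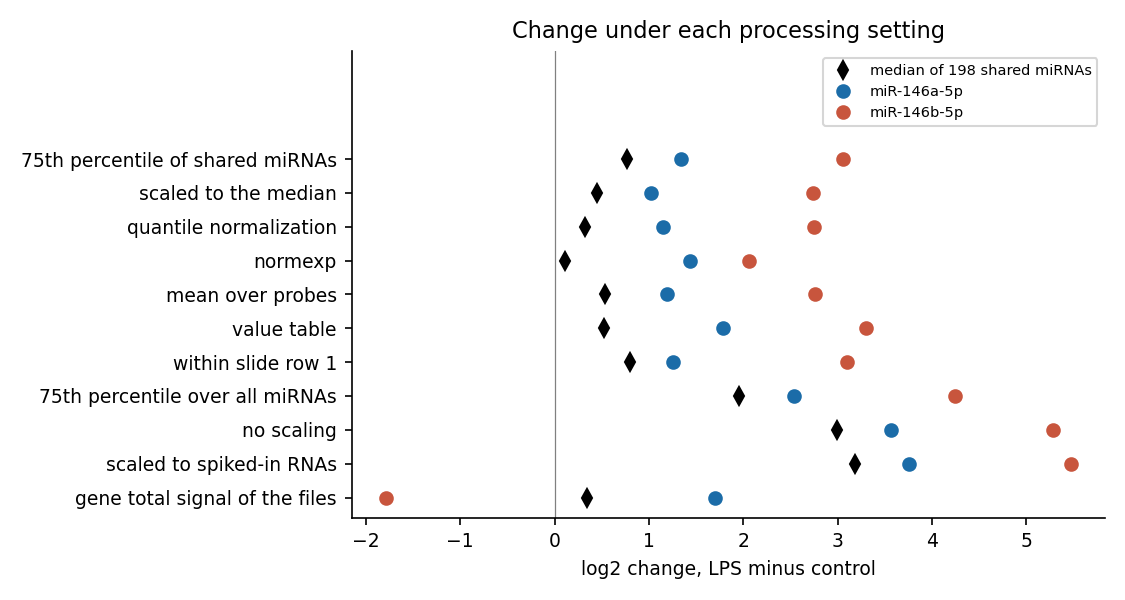
Log2 change (LPS minus control) of miR-146a-5p, miR-146b-5p and the median of 198 shared miRNAs under 11 processing settings. Both arms lie above the median under each setting shown except the gene total signal of the files, where miR-146b-5p is at -1.79.

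The summary column of the scanner files, the gene total signal, gave miR-146b-5p the opposite direction, -1.79, and this followed from how its control values were composed. In control 1 to 3 the gene totals listed for miR-146b-5p were 431, 508 and 480, while its only probe above 3 times its error, the 19-base one, totalled 11.1, 11.1 and 12.5. The differences, 420.1, 497 and 467, equalled the gene totals of miR-146a-5p, 420.1, 497 and 467. On the LPS arrays, where both probes of miR-146b-5p passed, its listed totals of 620.3, 769 and 709.9 equalled the sum of its own probes. Summing each miRNA's own probe totals, a setting chosen after the data were seen, gave 1.19 for miR-146a-5p and 2.77 for miR-146b-5p.

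**Figure D5:**
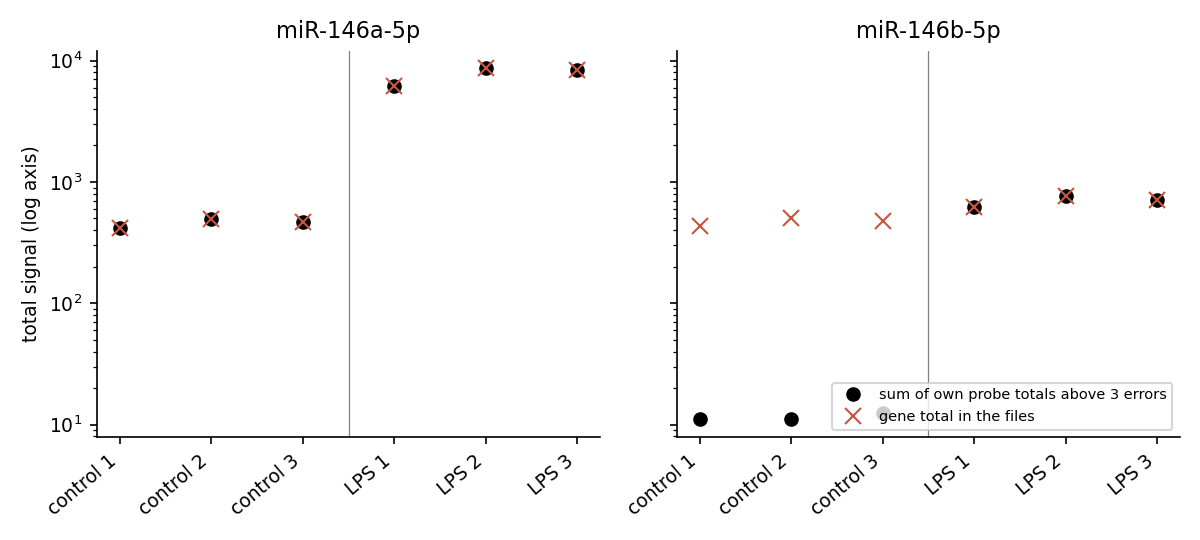
Gene total signal listed in the files (crosses) and the sum of a miRNA's own probe totals above 3 errors (points) by array, on a log axis, for miR-146a-5p and miR-146b-5p. The 2 agree on all arrays for miR-146a-5p, and differ on the 3 control arrays for miR-146b-5p (431 against 11.1 in control 1).

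A list of 18 other miRNAs reported to go up when macrophages meet LPS was set beside the family. It was chosen with earlier results of these data known, so it is no independent support. Of these 18 miRNAs, 12 were tested and 12 passed as higher in LPS, beside 65.5% of all 412 tested. However, 7 of the 12 had entered the test through the LPS arrays. The other 5 belong to the 198 shared miRNAs, of which 58.1% passed as higher. A further 6 (miR-155-3p, miR-132-5p, miR-212-5p, miR-9-5p, miR-147-3p and miR-187-3p) were detected on 0 arrays, as the miR-146 3p arms were. Those 5 had a median change of 2.74, against 0.77 for all 198 such miRNAs. miR-155-5p, which is induced by Toll-like receptors, rose by 4.18 (SE 0.07), more than miR-146b-5p. miR-221-3p and miR-222-3p, which share a cluster, rose by 3.003 (SE 0.05) and 2.74 (SE 0.08), close to miR-146b-5p. miR-21a-5p rose by 1.36 (SE 0.05), close to miR-146a-5p, and miR-132-3p, a miRNA that follows CREB activity, rose by 0.85 (SE 0.04).

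For the remaining 7 tested miRNAs of the list no control array gave a signal well above background, and 3 of them had a bound above 1. miR-210-3p, induced by low oxygen, was at least 13.4-fold higher in LPS, let-7e-5p at least 1.81-fold and miR-125a-5p at least 1.34-fold. No bound above 1 was reached by miR-99b-5p, miR-212-3p, miR-21a-3p or miR-9-3p. With normexp, 6 of the 12 passed as higher, beside 113 of all 412 tested miRNAs. Under the other settings that tested 12 the count was 10 to 12, beside 224 to 370 of all tested miRNAs.

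The miRNAs whose scaled profiles over the 6 arrays were nearest to those of the 5p arms differed between the arms. Among 196 miRNAs detected on all arrays, those nearest to miR-146a-5p by Euclidean distance of centred log2 values were miR-16-5p (0.0608), miR-27a-3p (0.0796), miR-20b-5p (0.0803), miR-21a-5p (0.0874) and miR-34c-5p (0.167), against a median distance of 1.29. Their changes ran from 1.33 to 1.36, and the control signal of miR-34c-5p was not well above background. Nearest to miR-146b-5p were miR-221-3p (0.195), miR-6931-5p (0.237), miR-494-3p (0.274), miR-222-3p (0.481) and miR-6944-5p (0.544), against a median distance of 2.84, with changes from 2.65 to 3.14. The profiles share arrays and scaling, and with 2 groups they are mostly set by the size of the change.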

How the data were processed

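Per the file headers, the authors' scans were extracted by Agilent's Feature Extraction software, version 10.7.1.1, where the submitters' processing notes give 9.1, as linear, background-subtracted intensity values per spot, with probe positions on mm9. The authors also deposited a log2 value table, whose normalization no header or label records, and it served as an alternative. Spots of each probe were averaged leaving out control and outlier spots. The brightest probe stood for its miRNA, and values were divided by the array's 75th percentile over 198 shared miRNAs, floored at 9.89 and logged. The 412 miRNAs detected on 3 of 3 arrays of a group were fitted with limma 3.58.1 in R 4.3.3 (lmFit, eBayes, Benjamini-Hochberg, threshold 0.05). In simulated data over 412 miRNAs limma called 90% of changes of 0.5, 100% of changes of 1, 2 or 3 and 1.89% of unchanged miRNAs. The part of scaling, background correction and the floor in these rates was not tested. A probe counted as well above background when most spots did. The members and lists were chosen with earlier results of these data known. Named miRNAs were the members, tested members of the list of LPS-induced miRNAs, and the 5 nearest profiles of each 5p arm. Undetected list members and miR-148b-3p were added after their values were seen. Of the cell type markers, miR-200c-3p and miR-181a-5p were named as detected on the LPS arrays only. The number of arrays limits the precision. Alternatives covered scaling, background correction, probe summaries, filters, floors, blocks and left-out arrays.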

Additional observations from a re-analysis of the deposited data

How the results depend on the processing

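Of 27 alternatives, miR-146a-5p kept its direction and its call in 27 and miR-146b-5p in 26. Both counts include the fits within the row and with the row as a block, which compare LPS 1 alone with the controls. The 26 also include the 18-base probe of miR-146b-5p, whose control signal was not well above background, so its change is a bound. The exception was the gene total signal of the files, with -1.79 for miR-146b-5p and -3.49 for its log2 ratio over miR-146a-5p. It arose because control totals of miR-146b-5p include those of miR-146a-5p. The measured ratio rose in the other 28 of 29, but many of these could not have moved it. Single factors per array, filters, blocks and the variance setting leave the ratio at 1.71 and add nothing to this count. A further 2, with the 18-base probe of miR-146b-5p alone (1.09) or of both arms (0.85), give no readable direction. They rest on a control signal not well above background. Leaving out 1 array at a time gave 1.25 to 1.40 for miR-146a-5p, 2.97 to 3.10 for miR-146b-5p and 1.62 to 1.76 for the ratio. The 3p arms were tested under no alternative, since none of the filters kept them. Counts over all miRNAs moved too. Of 412 tested, 270 were higher and 110 lower; normexp gave 113 higher and 284 lower. The split was 337 higher and 59 lower with the percentile over all miRNAs, 364 and 39 without scaling, and 370 and 38 with spiked-in RNAs. Fewer miRNAs were tested, and 115 were higher, when detection on all arrays was required, and 170 were higher with well above background as detection. Of the LPS-induced list 6 were higher with normexp and 5 where all arrays had to detect a miRNA, since only 5 of the list were tested. The cause of the other moves was not tested. Same-numbered samples showed no sign of pairing (r of their deviations -0.16, -0.062 and -0.050 across 412 miRNAs, which are not independent). Differently numbered samples gave r from -0.19 to 0.21. With 3 arrays per group these values cannot exclude pairing. Fitted with the replicate block, the changes were 1.34 for miR-146a-5p and 3.05 for miR-146b-5p, both called. Signal over background limits the control values of miR-146b-5p and all values of the 3p arms.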

Other observations

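The composition of the gene total signal seen for miR-146b-5p recurred across the files. For miRNAs with all probes above 3 errors, the listed total equalled the sum of their own probe totals on every array, 139 of 139 in control 1 and 322 of 322 in LPS 1 (within 0.02 plus 1e-04 of the total). For miRNAs with some but not all probes above 3 errors, the listed total equalled their own passing probes plus the listed total of the miRNA before them in alphabetical order among those with a passing probe, in 83.5% to 84.7% of such miRNAs on the control arrays (62 of 74 in control 1) and 92.4% to 93.5% on the LPS arrays (116 of 124 in LPS 1). The signal of miR-146a-5p was carried 1 step further on the control arrays: miR-148b-3p, which follows miR-146b-5p, was listed at 447, 526 and 497 with passing probes of its own of 15.7, 18.03 and 17.2. The gene totals of miR-146a-5p themselves equalled the sum of its own probes on all 6 arrays.

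The median spread between spots was largest in LPS 1, though not for every probe of the family. The SD over spots of the 19-base probe of miR-146a-5p was 16.1% of its mean in LPS 1, against 1.97% in LPS 2 and 2.19% in LPS 3 and 2.54% to 10.75% in control. For the 19-base probe of miR-146b-5p it was 11.4% in LPS 1 and 13.3% in control 1, the highest of the 6 arrays. Over all probes well above background the median was 12.6% in LPS 1 and 7.24% to 8.87% on the other arrays. Without LPS 1 the change of miR-146a-5p was 1.40 and that of miR-146b-5p 3.05.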
